A study of Mus musculus with 4 samples.

Results

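The collagen genes are the genes whose symbol in the deposited expression table is Col, a number, the letter a and a number, and nothing else. This rule found 43 of 25965 listed genes. By the type of assembly their chains form, 11 are fibrillar, 6 encode the type IV chains of basement membranes, and 26 belong to other classes. The cells were mouse embryonic stem cells (mESCs), female and FVB/CAST F1 in background, and RNA-seq gave 1 library in each of 4 groups. The day 0 library came from the cells before differentiation, grown in the 2i medium that keeps mESCs in the naive state, and its label calls it a nonsilencing control. The other 3 came from day 6 of differentiation in serum medium. On day 2 these cells received a short hairpin RNA (shRNA) by viral transduction, and puromycin selection followed on day 3. The hairpin was nonsilencing (Nons) in 1 library, while the other two carried Smarca4.4 or Smarca4.6, which both target Smarca4. A genotype label calls all 3 day 6 libraries, Nons included, a Smarcc knockdown, so the groups were taken from the titles. All 4 libraries carry the replicate number 3. The transduction and selection are stated for days 2 and 3 in every library's label, so the labels do not make clear whether the day 0 cells carried a hairpin. Day, culture medium and viral transduction with selection cannot be told apart between day 0 and Nons, each hairpin stands on 1 library, and no difference below has a replicate check.

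Collagens are secreted matrix proteins built from chains that wind around each other in a triple helix. Fibrillar collagens (types I, II, III, V, XI, XXIV and XXVII) pack into the fibrils of connective tissue. Type IV chains instead form the sheet-like network of basement membranes, which early embryonic epithelia already lay down. The other classes include the beaded filaments of type VI, the fibril-associated collagens with interrupted helices (FACIT), the anchoring fibrils of type VII, the networks of types VIII and X, the multiplexins XV and XVIII, whose core proteins carry sugar chains, and the transmembrane collagens. Chains are hydroxylated and folded in the endoplasmic reticulum, trimmed after secretion and cross-linked outside the cell.

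The 6 type IV genes lie in 3 head-to-head pairs, each transcribed outwards from a shared upstream region. In mm10 (GRCm38), Col4a1 (chromosome 8, 11198423 to 11312826, minus strand) and Col4a2 (chromosome 8, 11312805 to 11449287, plus strand) overlap by 22 bases in their first exons. Col4a4 (chromosome 1, 82452558 to 82586849, minus strand) and Col4a3 (chromosome 1, 82586921 to 82722059, plus strand) are 71 bases apart. Col4a6 (chromosome X, 141165403 to 141474076, minus strand) and Col4a5 (chromosome X, 141475385 to 141689234, plus strand) are separated by 1308 bases. The sequences below, from RefSeq on GRCm38.p6, are shown because the 2 members of the first pair had the largest type IV levels and those of the second pair had almost no reads. Capitals mark matches to CCAAT, to the GC box GGGCGG or to TATAAA on either strand. The first is the exon overlap and the second the gap between the start sites, both on the plus strand. The last 2 are the bases just upstream of each X-linked gene, on that gene's strand.
Col4a1 and Col4a2, chr8:11312805-11312826: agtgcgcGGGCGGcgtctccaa
Col4a4 and Col4a3, chr1:82586850-82586920: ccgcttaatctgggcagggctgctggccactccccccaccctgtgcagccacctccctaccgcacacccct
Col4a6, chrX:141474077-141474326: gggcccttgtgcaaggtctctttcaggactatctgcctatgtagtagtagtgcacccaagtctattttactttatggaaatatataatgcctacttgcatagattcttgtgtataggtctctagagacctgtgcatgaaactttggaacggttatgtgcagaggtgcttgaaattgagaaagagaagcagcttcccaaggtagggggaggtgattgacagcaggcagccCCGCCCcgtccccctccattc
Col4a5, chrX:141475169-141475384: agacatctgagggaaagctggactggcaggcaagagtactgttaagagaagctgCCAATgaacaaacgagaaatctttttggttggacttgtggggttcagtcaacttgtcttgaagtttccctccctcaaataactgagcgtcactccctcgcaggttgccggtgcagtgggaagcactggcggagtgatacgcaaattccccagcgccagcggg

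The overlap of Col4a1 and Col4a2 held 1 GC box, and the gap between Col4a4 and Col4a3 held none of the 3 motifs. Over windows of 250 bases before to 50 after a gene's start, a GC box was present in 35.7% of the 32851 windows of all genes and in 60.5% of the 38 windows of the 35 collagen genes that were found there. CCAAT was present in 37.4% of all windows and 34.2% of the collagen windows, and TATAAA in 13.62% and 13.16%. These are matches of letters only. The median GC content was 52.67% over all windows and 59.83% over the collagen windows, and its part in the GC box share was not tested. Some collagen windows overlap, such as those of Col4a1 and Col4a2. Col1a1, Col2a1, Col5a2, Col9a3, Col12a1, Col14a1, Col22a1 and Col4a3 were not found in that table.

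The day 0 library held 18599402 reads and those of day 6 between 36495575 and 47143739. Levels are in CPM, reads of a gene scaled to a common library total. The floor for a count of 0 was set at 3 reads. These were worth 0.161 CPM at day 0 and between 0.0636 and 0.0822 CPM at day 6. Intervals are exact 95% intervals of the recovered reads. They cover counting error only and compare libraries, not conditions. Smarca4, the targeted ATPase of the BAF chromatin remodelling complex, had 229 CPM in Nons against 131 (Smarca4.4) and 174 (Smarca4.6), so both hairpin libraries were below Nons as labelled. A gene was kept for counts of differences where its log2 CPM averaged at least 0 over the 4 libraries, which held for 13264 genes and for 22 collagen genes (8 fibrillar, 3 type IV and 11 other). Of these 22, 7 had a log2 CPM below 0 at day 0 and were kept through their day 6 levels, so their difference over time was set in part by the filter.

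Fibrillar chains made up more, and type IV chains less, of the collagen transcripts at day 6 with Nons than at day 0. The 43 genes together had 617 CPM at day 0, 745 with Nons, 738 with Smarca4.4 and 655 with Smarca4.6. The fibrillar genes summed to 35.0 CPM at day 0 and 127 CPM in Nons, which is 3.63-fold higher (interval 3.34 to 3.94). The type IV genes went the other way, from 241 to 141 CPM, a ratio of 0.584 (0.562 to 0.606). The other classes summed to 340 CPM at day 0 and 477 CPM in Nons, a ratio of 1.40 (1.36 to 1.44). That ratio rested on Col18a1, and without it, a sum added after seeing the data, the other classes had 87.6 CPM at day 0 and 54.2 CPM in Nons, a ratio of 0.619 (0.581 to 0.659). As a share of collagen reads, fibrillar genes were 5.68% (5.26 to 6.12) at day 0 and 17.05% (16.65 to 17.45) in Nons, and type IV genes were 39.1% (38.3 to 40.1) and 18.9% (18.5 to 19.3).

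With the hairpins against Smarca4, the type IV sum was higher than in Nons, and the fibrillar and other sums were lower. Without Col18a1 the sum of the other classes was not below Nons with either hairpin. Without Col2a1 the fibrillar sum was below Nons only in Smarca4.6. Type IV genes had 211 CPM with Smarca4.4 and 170 CPM with Smarca4.6, ratios to Nons of 1.497 (1.45 to 1.55) and 1.21 (1.17 to 1.25). Fibrillar genes had 119 and 97.0 CPM, ratios of 0.937 (0.903 to 0.972) and 0.764 (0.732 to 0.797). The other classes had 408 and 389 CPM, ratios of 0.856 (0.839 to 0.873) and 0.815 (0.798 to 0.832). Without Col2a1, also a sum added after seeing the data, the fibrillar ratios to Nons were 1.06 (1.01 to 1.11) with Smarca4.4 and 0.953 (0.905 to 1.00) with Smarca4.6. Without Col18a1, those of the other classes were 1.09 (1.04 to 1.16) and 1.03 (0.967 to 1.09). Over all genes of a class, both hairpin libraries lay between Nons and day 0, but without Col2a1 the fibrillar sum in Smarca4.4 (80.9 CPM) was above Nons (76.1 CPM). The same Nons library enters all of these comparisons, that with day 0 included, so they are not independent.

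**Figure D1:**
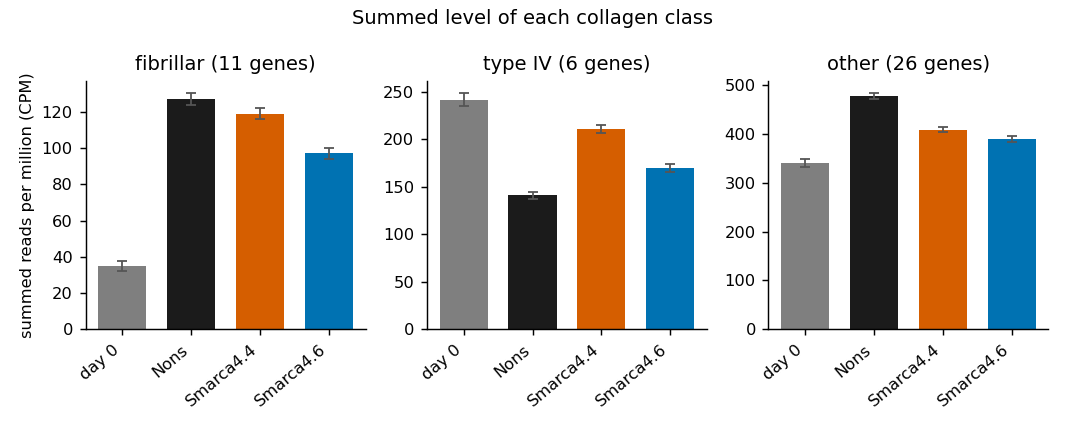
Summed level in CPM of the fibrillar, type IV and other collagen genes in the 4 libraries, with exact 95% intervals for counting error; each axis starts at 0. Fibrillar genes sit at 35.0 CPM at day 0 and between 97.0 and 127 CPM at day 6, while type IV genes are highest at day 0 (241 CPM) and lowest in Nons (141 CPM).

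Few genes carried most of these reads. Col18a1, Col4a1 and Col4a2 held all but 20.2% of collagen reads at day 0 and all but 24.4% to 25.1% at day 6. Per kilobase of annotated exon (GENCODE M21), the highest level at day 0 was that of Col18a1 (36.0 CPM per kb), followed by Col4a1 (22.3), Col9a2 (20.4), Col4a2 (11.04) and Col5a1 (2.78). In Nons the order was Col18a1 (60.2 CPM per kb), Col4a1 (12.8), Col4a2 (6.00), Col2a1 (5.50) and Col9a3 (4.16). Col9a2, which came before Col4a2 at day 0, had 1.86 CPM per kb in Nons. In both hairpin libraries Col18a1, Col4a1 and Col4a2 again came first. Next came Col5a1 (4.94 CPM per kb) in Smarca4.4 and Col9a3 (4.07) in Smarca4.6.

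Transcripts of more collagen genes were detected at day 6 than at day 0, in the deeper libraries. Over 3 reads were present for 22 of the 43 genes at day 0 and for 35 in Nons. For the fibrillar genes this was 5 of 11 at day 0 and all 11 in Nons, for type IV 3 and 5 of 6, and for the other classes 14 and 19 of 26. The count past 3 reads was not made for all genes. Of all 25965 listed genes, 9077 had 0 reads at day 0 and 7639 in Nons, beside 11 and 4 of the 43 collagen genes. Depth differed by day as well, so that a gene with 0 reads at day 0 may have had up to 0.198 CPM, the upper end of its exact interval. Over 3 reads were present in all 3 day 6 libraries for 31 genes. At the other end, 4 genes had at most 3 reads in every library (Col4a4, Col9a1, Col19a1 and Col28a1), and Col19a1 had 0 reads in all 4.

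**Figure D2:**
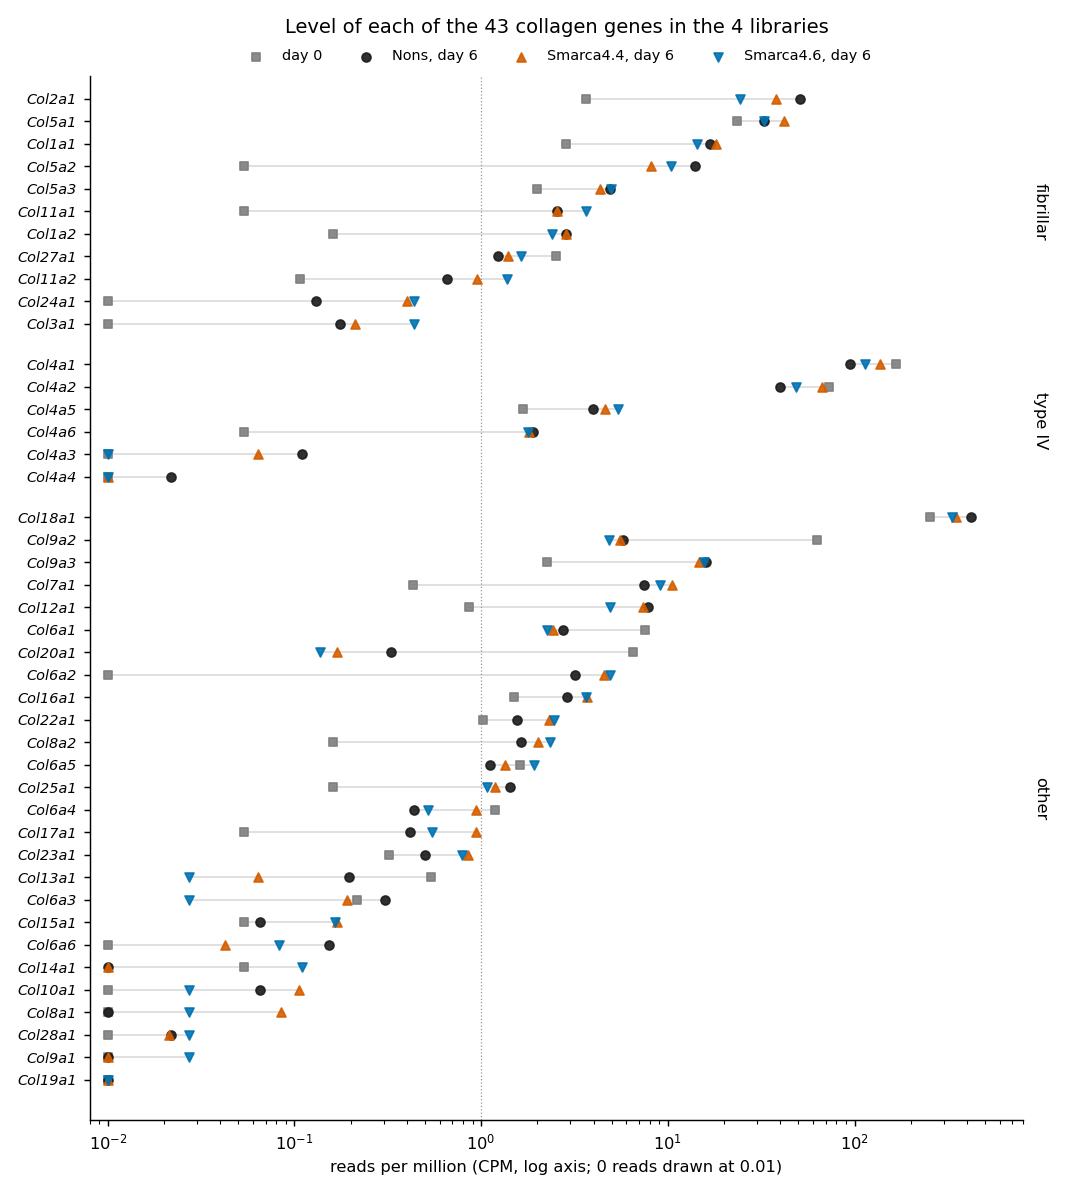
Level of each of the 43 collagen genes in CPM (log axis) in the 4 libraries, by class and ordered by the highest level; 0 reads are drawn at 0.01 CPM and the dotted line marks 1 CPM. Most fibrillar genes have their day 0 square far to the left of the day 6 symbols, whereas Col4a1, Col4a2, Col27a1, Col9a2, Col6a1, Col20a1, Col6a4 and Col13a1 have it to the right.

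From day 0 to Nons day 6, 12 of the 22 collagen genes kept were at least 2-fold higher and 3 at least 2-fold lower, against 19.6% and 12.3% of all genes kept. Those higher were Col1a1, Col1a2, Col2a1, Col5a2, Col5a3 and Col11a1 (6 of 8 fibrillar genes), Col4a5 (1 of 3 type IV genes) and Col6a2, Col7a1, Col8a2, Col9a3 and Col12a1 (5 of 11 others). Col27a1, Col6a1 and Col9a2 were lower. The 7 genes kept through their day 6 levels (Col1a2, Col5a2, Col11a1, Col6a2, Col7a1, Col8a2 and Col12a1) were all among the 12 higher ones. These counts, and the medians of all collagen genes kept and of the classes holding those 7, were therefore set in part by the filter. The median log2 difference of the collagen genes kept was 1.28, against 0.03 for all genes kept. It was 3.18 for the fibrillar genes, -0.81 for type IV and 0.94 for the others. With the filter applied to the mean of the 2 libraries compared, an alternative added after seeing the data, 7 of 18 collagen genes were higher and 4 lower, against 17.4% and 13.7% of all genes kept by that filter, and the medians were 0.67 for all collagen genes and 1.31 for the fibrillar ones.

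Among the fibrillar genes, Col2a1 (chromosome 15, 97975602 to 98004695, minus strand), whose chain forms the type II fibrils of cartilage, had 3.66 CPM at day 0, 50.8 with Nons, 38.1 with Smarca4.4 and 24.4 with Smarca4.6. Nons was thus 13.9-fold above day 0 (log2 difference 3.80, interval 3.45 to 4.17), and each hairpin library was between them. Col1a1 (chromosome 11, 94936224 to 94953042, plus strand), the major chain of type I collagen, had 2.85 CPM at day 0, 16.8 with Nons, 18.1 with Smarca4.4 and 14.4 with Smarca4.6. It was 5.91-fold higher in Nons than at day 0 (2.56, 2.16 to 2.99), and its 3 day 6 levels were close. Col1a2, the partner chain, had 3 reads (0.161 CPM) at day 0 and between 2.38 and 2.86 CPM at day 6.

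Col5a2 (chromosome 1, 45374321 to 45503282, minus strand), a chain of the type V collagen that is built into type I fibrils, had 1 read at day 0 and 637 in Nons. The ratio of 259 has a log2 interval of 5.53 to 13.3. In CPM its levels were 0.0538 at day 0, 13.92 with Nons, 8.12 with Smarca4.4 and 10.4 with Smarca4.6. Its partner Col5a1 (chromosome 2, 27886425 to 28039514, plus strand) was already present at day 0 with 23.6 CPM, and had 32.9 with Nons, 41.9 with Smarca4.4 and 32.9 with Smarca4.6. From day 0 to Nons, Col5a1 differed by 0.48 on the log2 scale (0.33 to 0.64). Other genes overlap 2.50% of the exon bases of Col5a1 on the opposite strand. The strand setting of the counting was not stated, so reads of such overlaps cannot be told apart.

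The remaining type V chain, Col5a3, had 1.99 CPM at day 0 and between 4.31 and 4.93 CPM at day 6. Col11a1, which regulates fibril diameter in cartilage, had 1 read at day 0 and 2.54 CPM in Nons, and Col11a2 had 2 reads and 0.656 CPM. Col27a1 was the only fibrillar gene that was at least 2-fold lower in Nons, with 2.53 CPM at day 0 and 1.22 in Nons. Col3a1 and Col24a1 had 0 reads at day 0 and at most 0.438 CPM at day 6. Type III collagen is a major product of fibroblasts, and Col3a1 remained near the floor in every library here (at most 16 reads).

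The 2 major type IV genes, whose chains assemble with one another in most basement membranes, were lower in Nons than at day 0. Col4a1 had 167 CPM at day 0, 95.1 with Nons, 137 with Smarca4.4 and 114 with Smarca4.6, so Nons was the lowest of the 4. The log2 difference of Nons from day 0 was -0.81 (-0.88 to -0.74). Col4a2 had 73.1 CPM at day 0, 39.7 with Nons, 67.1 with Smarca4.4 and 48.5 with Smarca4.6, in the same order, with a difference of -0.88 (-0.98 to -0.78). Neither reached 2-fold.

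The minor type IV chains did not follow them. Col4a5 had 1.67 CPM at day 0, 3.96 with Nons, 4.603 with Smarca4.4 and 5.40 with Smarca4.6, which put day 0 lowest (log2 difference of Nons from day 0 of 1.25, 0.69 to 1.85). Its X-linked neighbour Col4a6 had 1 read at day 0 and between 1.78 and 1.90 CPM at day 6. Col4a3 and Col4a4 had 0 reads at day 0 and at most 5 reads in any library.

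Among the other classes, Col18a1 (chromosome 10, 77052178 to 77166548, minus strand) had 253 CPM at day 0, 423 with Nons, 349 with Smarca4.4 and 333 with Smarca4.6. It is a basement membrane multiplexin whose C-terminal fragment is endostatin. Nons was the highest of the 4 libraries, 1.67-fold above day 0 (log2 difference 0.74, 0.70 to 0.79). In contrast to the type IV chains, the hairpin levels lay below Nons. The other multiplexin, Col15a1, had at most 8 reads.

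The FACIT chains of type IX parted company over the 6 days. Col9a2 (chromosome 4, 121039385 to 121055322, plus strand) had 63.1 CPM at day 0, 5.77 with Nons, 5.54 with Smarca4.4 and 4.82 with Smarca4.6. It was 10.9-fold lower in Nons than at day 0 (-3.45, -3.65 to -3.26). Col9a3 (chromosome 2, 180597790 to 180622189, plus strand), which encodes a partner chain of the same trimer, had 2.26 CPM at day 0, 16.02 with Nons, 14.7 with Smarca4.4 and 15.7 with Smarca4.6, and was 7.09-fold higher in Nons (2.83, 2.38 to 3.31). Tcfl5 overlaps 6.07% of the exon bases of Col9a3 on the opposite strand. The remaining type IX chain, Col9a1, had at most 1 read. Col12a1 (chromosome 9, 79598991 to 79718831, minus strand), a FACIT collagen on the surface of type I fibrils, had 0.860 CPM at day 0, 7.85 with Nons, 7.32 with Smarca4.4 and 4.88 with Smarca4.6, or 9.12-fold more in Nons than at day 0 (3.19, 2.47 to 4.01).

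Col7a1 (chromosome 9, 108953586 to 108984875, plus strand) forms the anchoring fibrils that fasten epithelial basement membranes. It had 0.430 CPM (8 reads) at day 0, 7.496 with Nons, 10.6 with Smarca4.4 and 9.10 with Smarca4.6, and was 17.4-fold higher in Nons than at day 0 (4.12, 3.13 to 5.35). The type VI chains also went in different directions. Col6a1 had 7.53 CPM at day 0 and 2.75 in Nons (-1.45, -1.81 to -1.09), whereas Col6a2 (chromosome 10, 76595762 to 76623630, minus strand) had 0 reads at day 0 and 3.19 CPM in Nons. That Nons level was 19.8-fold the level of 3 reads at day 0, and the exact interval of the log2 difference began at 3.99. Col6a1 and Col6a2 lie on the same strand, 85161 bases apart. Per kilobase of exon, Col6a1 was 1.64 times (1.28 to 2.10) Col6a2 in Nons, 1.01 times (0.796 to 1.27) with Smarca4.4 and 0.871 times (0.662 to 1.14) with Smarca4.6. Col6a3, which usually completes their trimer, had at most 0.306 CPM. The network gene Col8a2, of vascular and corneal matrix, had 3 reads at day 0 and 1.64 CPM in Nons, and the FACIT gene Col16a1 had 1.51 and 2.89 CPM.

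**Figure D3:**
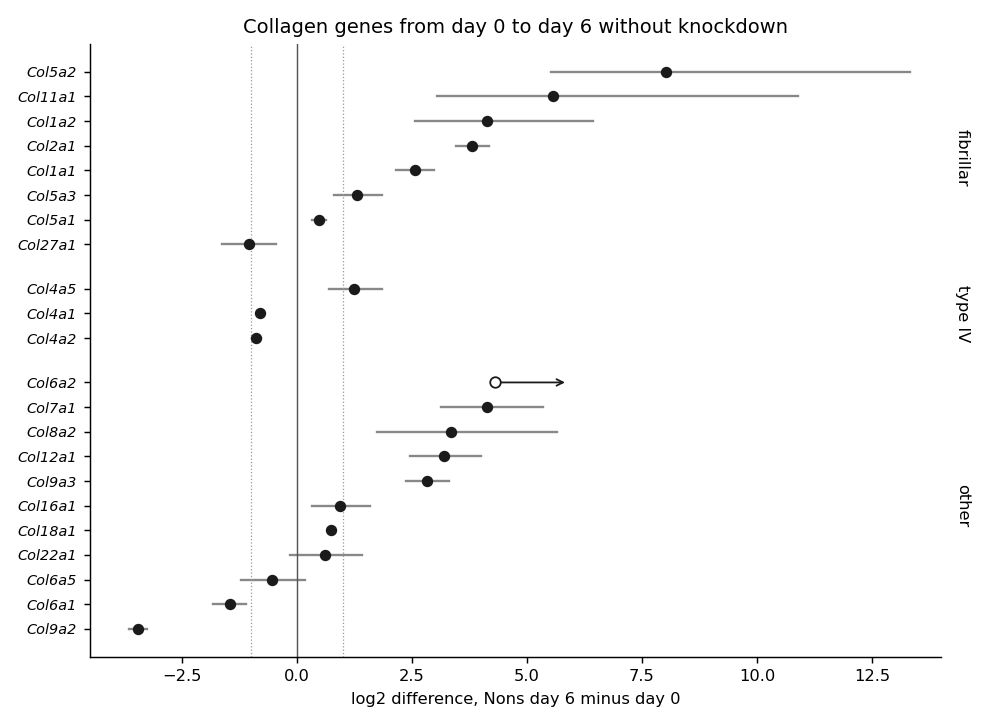
Log2 difference of Nons day 6 from day 0 for the 22 collagen genes kept, by class, with exact 95% intervals for counting error (lines) and 2-fold limits (dotted). The open circle with an arrow is for Col6a2, which had 0 reads at day 0, and sets Nons against 3 reads at day 0 without counting error. Among the fibrillar genes 7 of 8 are above 0, and Col4a1 and Col4a2 are below.

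With Smarca4.4, 0 of the 22 collagen genes kept were at least 2-fold higher than in Nons and 0 at least 2-fold lower, against 0.882% and 0.309% of all genes kept. At least 1.5-fold, 1 was higher (Col4a2) and 1 lower (Col5a2), where the shares of all genes kept were 4.03% and 2.37%. With Smarca4.6, 0 were 2-fold higher and 1 was 2-fold lower (Col2a1), beside 1.03% and 0.799% of all genes kept. Past 1.5-fold, 3 were higher (Col6a2, Col6a5 and Col22a1) and 2 lower (Col2a1 and Col12a1), beside 5.68% and 3.83%. The median log2 difference of the collagen genes kept was 0.15 with Smarca4.4 and 0.13 with Smarca4.6, and that of all genes kept was 0.04 and 0.06.

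By class, the medians in Smarca4.4 were 0.01 for the fibrillar genes (-0.03 when the median of all genes was subtracted), 0.53 for type IV and 0.26 for the others. In Smarca4.6 they were -0.11, 0.29 and 0.28. All 3 type IV genes kept were above Nons in both libraries. Of the 8 fibrillar genes kept, 5 were above and 3 below Nons in Smarca4.4, and 3 above and 5 below in Smarca4.6, where 7490 and 7812 of all 13264 genes kept were above Nons. After subtracting the median of all genes, 3 fibrillar genes were above and 5 below in Smarca4.4, and 2 above and 6 below in Smarca4.6.

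Col4a2 was 1.69-fold higher in Smarca4.4 than in Nons (log2 difference 0.76, interval 0.67 to 0.84) and 1.22-fold higher in Smarca4.6 (0.29, 0.19 to 0.38). Its head-to-head neighbour Col4a1 was 1.44-fold (0.53, 0.47 to 0.59) and 1.201-fold (0.26, 0.20 to 0.33) higher. Both were therefore between Nons and day 0 with each hairpin, and nearer to day 0 with Smarca4.4. Per kilobase of exon, Col4a1 was 2.02 times Col4a2 at day 0 (1.90 to 2.16), 2.12 times with Nons (2.01 to 2.25), 1.82 times with Smarca4.4 (1.74 to 1.90) and 2.09 times with Smarca4.6 (1.98 to 2.21), so the ratio in Smarca4.4 was below those in Nons and Smarca4.6. Col4a5 differed from Nons by 0.22 (-0.07 to 0.51) with Smarca4.4 and 0.45 (0.15 to 0.75) with Smarca4.6.

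Col2a1 was 1.34-fold lower in Smarca4.4 than in Nons (-0.42, -0.51 to -0.33) and 2.08-fold lower in Smarca4.6 (-1.06, -1.17 to -0.94), the only one of the 22 genes kept that was past 2-fold in either. Col5a2 was 1.71-fold lower in Smarca4.4 (-0.78, -0.96 to -0.59) and 1.34-fold lower in Smarca4.6 (-0.42, -0.61 to -0.24). Its partner Col5a1 was 1.27-fold higher in Smarca4.4 (0.35, 0.25 to 0.45), and in Smarca4.6 its difference was 0.00 (-0.11 to 0.11). The ratio of Col5a1 to Col5a2 per kilobase of exon was accordingly 2.67 with Nons (2.43 to 2.94), 5.83 with Smarca4.4 (5.22 to 6.52) and 3.58 with Smarca4.6 (3.18 to 4.03). For Col1a1 and Col1a2 this ratio was 11.2 with Nons (9.30 to 13.61), 11.99 with Smarca4.4 and 11.45 with Smarca4.6, with intervals that overlapped. Col1a1 itself differed from Nons by 0.11 (-0.03 to 0.25) with Smarca4.4 and by -0.22 (-0.39 to -0.06) with Smarca4.6.

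Col18a1, which had the highest per-kilobase level in all libraries, was 1.21-fold lower in Smarca4.4 (-0.28, -0.31 to -0.25) and 1.27-fold lower in Smarca4.6 (-0.34, -0.38 to -0.31). Col12a1 was 1.61-fold lower in Smarca4.6 (-0.69, -0.95 to -0.42), and in Smarca4.4 it differed by -0.10 (-0.32 to 0.12). Neither type IX gene had an interval clear of 0 in either library. Col9a2 differed by -0.06 and -0.26, and Col9a3 by -0.12 and -0.03.

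Several low genes of the other classes were higher than Nons with a hairpin. Col6a2 was 1.43-fold higher in Smarca4.4 (4.56 CPM; 0.52, 0.21 to 0.83) and 1.54-fold higher in Smarca4.6 (4.91 CPM; 0.62, 0.30 to 0.95). Col22a1 (chromosome 15, 71795795 to 72034227, minus strand), a FACIT collagen of tissue junctions, had 1.02 CPM at day 0, 1.55 with Nons, 2.31 with Smarca4.4 and 2.47 with Smarca4.6, differences from Nons of 0.58 (0.13 to 1.03) and 0.67 (0.20 to 1.14). Col6a5 (chromosome 9, 105858668 to 105960643, minus strand) had 1.61 CPM at day 0, 1.12 with Nons, 1.34 with Smarca4.4 and 1.92 with Smarca4.6, differences of 0.26 (-0.29 to 0.82) and 0.78 (0.24 to 1.33). Each of these rests on at most 215 reads in a library. With 1 CPM added before taking logs, none of the 3 was past 1.5-fold in Smarca4.6, and after subtracting the median of all genes Col6a2 was not. Col7a1 was 1.41-fold higher in Smarca4.4 (0.50, 0.30 to 0.70) and 1.21-fold higher in Smarca4.6 (0.28, 0.06 to 0.50). Col8a2 differed from Nons by 0.30 (-0.15 to 0.75) and 0.51 (0.04 to 0.97), Col16a1 by 0.36 (0.02 to 0.69) and 0.34 (-0.02 to 0.70), and Col6a1 by -0.19 (-0.57 to 0.19) and -0.29 (-0.71 to 0.12), with Smarca4.4 given first. Of the low fibrillar genes kept, only Col11a1 with Smarca4.6 had an interval clear of 0 (0.52, 0.15 to 0.90), among Col11a1, Col27a1, Col5a3 and Col1a2 with either hairpin.

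**Figure D4:**
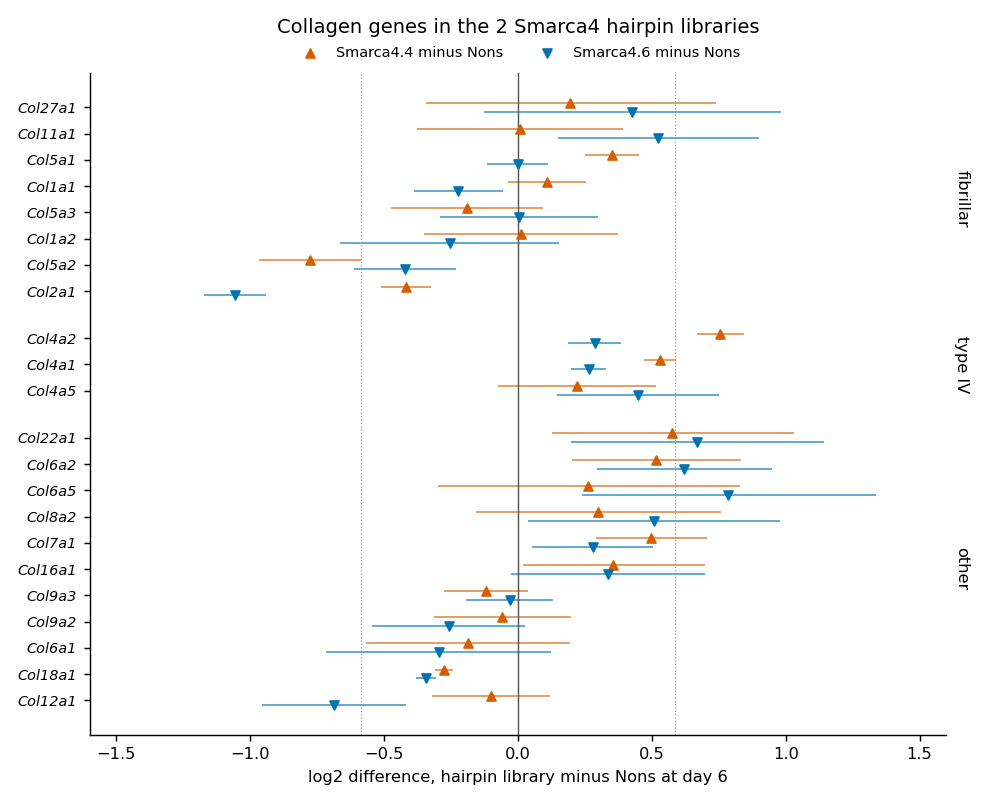
Log2 difference from Nons of Smarca4.4 (upward triangles) and Smarca4.6 (downward triangles) for the 22 collagen genes kept, by class, with exact 95% intervals for counting error; dotted lines mark 1.5-fold. Col2a1 in Smarca4.6 (-1.06) is the lowest, and the intervals of Col4a2 (0.67 to 0.84) and Col5a2 (-0.96 to -0.59) in Smarca4.4 lie past the 1.5-fold lines; both hairpins share the Nons library.

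The 2 hairpin libraries also differed from each other. Col2a1 (1.56-fold, log2 difference of Smarca4.4 from Smarca4.6 of 0.64, 0.52 to 0.76), Col12a1 (0.59, 0.32 to 0.85), Col4a2 (0.47, 0.38 to 0.55), Col5a1 (0.35, 0.25 to 0.46), Col1a1 (0.33, 0.17 to 0.49) and Col4a1 (0.27, 0.21 to 0.32) were higher in Smarca4.4. Col5a2 (-0.35, -0.56 to -0.15), Col11a1 (-0.52, -0.89 to -0.15) and Col6a5 (-0.52, -1.04 to -0.01) were lower there. Smarca4 had the lower level in Smarca4.4, so Col4a1, Col4a2 and Col5a2 stood further from Nons in the library with less Smarca4, while Col2a1 and Col12a1 stood further from Nons in the library with more.

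**Figure D5:**
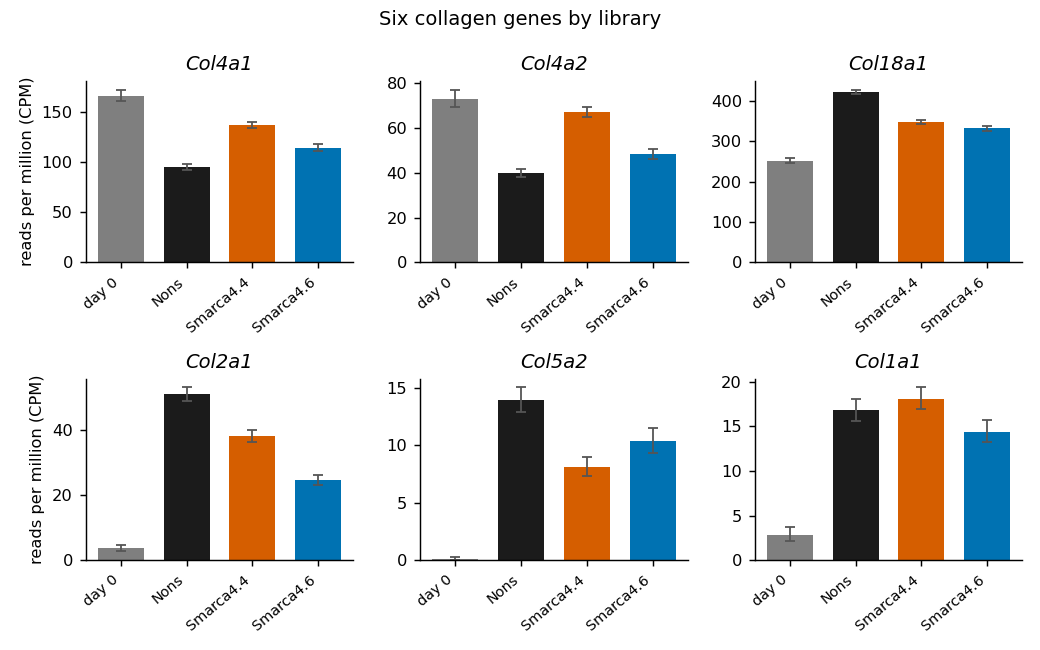
Level in CPM of Col4a1, Col4a2, Col18a1, Col2a1, Col5a2 and Col1a1 in the 4 libraries, with exact 95% intervals for counting error; each axis starts at 0 and has its own scale. In both hairpin libraries Col4a1, Col4a2, Col18a1, Col2a1 and Col5a2 lie between Nons and day 0, whereas Col1a1 lies on either side of Nons (18.1 and 14.4 CPM against 16.8). Of the genes kept that are not drawn, Col9a3, Col12a1 and Col27a1 also lie between Nons and day 0 in both. Col4a5, Col6a1, Col6a2, Col7a1, Col8a2, Col9a2, Col11a1, Col16a1 and Col22a1 lie beyond Nons, away from day 0, in both.

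The 21 collagen genes that were not kept had at most 6.51 CPM. That highest level was of Col20a1, a FACIT gene with 121 reads at day 0 and 15, 8 and 5 reads with Nons, Smarca4.4 and Smarca4.6, in that order. Col25a1, a transmembrane collagen of neurons, had 3 reads at day 0 and between 1.07 and 1.42 CPM at day 6. Col17a1, a transmembrane collagen of hemidesmosomes, had 1 read at day 0 and 0.415, 0.933 and 0.548 CPM with Nons, Smarca4.4 and Smarca4.6, in that order. Col13a1 had 10 reads at day 0, 9 with Nons, 3 with Smarca4.4 and 1 with Smarca4.6, and Col6a4 had 22, 20, 44 and 19. Col23a1 had 6 reads at day 0 and between 23 and 40 at day 6. Col6a6, Col8a1, Col10a1 and Col14a1 had at most 7 reads in any library.

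Collagens need enzymes and chaperones to leave the cell, and 36 of 45 such genes and matrix partners found were kept. From day 0 to Nons, 12 of the 36 were at least 2-fold higher and 9 at least 2-fold lower, against 19.6% and 12.3% of all genes kept, with a median of 0.15. Fkbp10, Bmp1 and Bgn were among the 12 and were kept through day 6 levels, with a log2 CPM below 0 at day 0. The counts and median were therefore set in part by the filter. With the filter on the 2 libraries compared, 11 of 35 were higher and 9 lower, against 17.4% and 13.7% of all genes so kept. Among the 36, the highest value was that of Fkbp10, a prolyl isomerase that assists collagen folding, with 0.914 CPM at day 0 and 23.1, 21.2 and 26.1 with Nons, Smarca4.4 and Smarca4.6, in that order (log2 difference of Nons from day 0 of 4.66). The lowest was that of the cell adhesion glycoprotein fibronectin, Fn1, with 1341 CPM at day 0 and 157, 113 and 113 CPM at day 6 (-3.10). The collagen-specific chaperone Serpinh1 had 225 CPM at day 0 and 162, 139 and 134 CPM with Nons, Smarca4.4 and Smarca4.6, in that order. The prolyl 4-hydroxylase subunits were abundant at day 0 as well. P4ha1 had 182 CPM at day 0 and 116, 113.5 and 98.9 at day 6, and P4hb had 503, 469, 489 and 509.

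The lysyl hydroxylase Plod2 had 193 CPM at day 0, 274 with Nons, 257.5 with Smarca4.4 and 241 with Smarca4.6. The cross-linking enzyme Lox was below the filter with 0.108, 1.53, 2.61 and 1.97 CPM. Sparc, a collagen-binding glycoprotein, had 139 CPM at day 0, 358 with Nons, 341 with Smarca4.4 and 287 with Smarca4.6. In Smarca4.4, 0 of the 36 were 1.5-fold higher than Nons and 1 lower, against 4.03% and 2.37% of all genes kept. In Smarca4.6 it was also 0 and 1, against 5.68% and 3.83%. That gene was Bgn in each, a small proteoglycan that binds collagen, with 0.269 CPM at day 0, 4.76 with Nons, 3.05 with Smarca4.4 (-0.64) and 2.03 with Smarca4.6 (-1.23). The highest differences among the 36 were those of the prolyl hydroxylase family gene P3h3 in Smarca4.4 (0.40) and the propeptide protease Adamts3 in Smarca4.6 (0.47).

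Of the 17 genes that degrade, take up or bind collagen, 10 were kept. From day 0 to Nons, 8 of them were at least 2-fold higher and 1 at least 2-fold lower, against 19.6% and 12.3% of all genes kept, with a median of 3.25. These values were set in part by the filter, because Mmp9 and Mmp14 were kept through their day 6 levels. With the filter on the 2 libraries compared, 7 of 9 were higher and 2 lower, against 17.4% and 13.7% of all genes so kept. Mmp9, a gelatinase, had 2 reads at day 0 (0.108 CPM) and 5.40 CPM in Nons, the highest difference of the 10 (5.65). The metalloproteinase inhibitor Timp1 was the lowest of the 10 (-3.06), with 19.2 CPM at day 0 and 2.30 in Nons. The collagen receptor gene Ddr2, which was not kept, was lower still, with 17.5 CPM at day 0 and 0.328 in Nons (-5.74). With the hairpins Timp1 was the highest of the 10 genes kept, with 4.77 CPM for Smarca4.4 (1.06) and 4.47 for Smarca4.6 (0.96). Mmp2, another gelatinase, was the lowest of them, with 32.4 CPM with Nons, 21.5 with Smarca4.4 (-0.60) and 24.7 with Smarca4.6 (-0.39). Past 1.5-fold, 2 of the 10 were higher and 1 lower in Smarca4.4, against 4.03% and 2.37% of all genes kept, and 3 higher and 0 lower in Smarca4.6, against 5.68% and 3.83%.

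Markers of other cell types moved with some of these levels. In bulk RNA, fewer cells of a type and less RNA per cell cannot be told apart. The 5 pluripotency markers summed to 3139 CPM at day 0 and between 814 and 1092 CPM at day 6. Most of the day 6 sum was Pou5f1, which had 724 CPM at day 0 and 915 in Nons, while Nanog had 999 and 60.7, Zfp42 512 and 19.2, Esrrb 459 and 8.55, and Sox2 444.5 and 45.0 CPM. The 5 smooth muscle markers, with Acta2 at 0 reads at day 0, summed to 2.26 CPM at day 0, 1083 with Nons, 797 with Smarca4.4 and 681 with Smarca4.6, the same order as the fibrillar sum. Most of the day 6 sum was Tagln, with 852, 637 and 538 CPM. Acta2, Cnn1 and Des had the same order, but Myh11 did not, with 0.269 CPM at day 0 and 1.18, 0.488 and 1.15 CPM at day 6. The 8 markers of primitive and parietal endoderm, none at 0, summed to 120, 206, 223 and 200 CPM. Among them Lama1, a laminin chain of early basement membranes, followed the order of Col4a1 and Col4a2 with 77.9 CPM at day 0, 8.15 with Nons, 24.7 with Smarca4.4 and 14.1 with Smarca4.6. Sox7, with at most 47 reads in a library, had the same order with 1.83, 0.372, 0.997 and 0.767 CPM. The other markers of that list did not. Lamb1, the largest part of the day 6 sum, had 32.4, 171, 164.5 and 153 CPM, Dab2 had 1.83, 22.1, 26.1 and 25.5, and Gata4 0.914, 2.23, 2.97 and 3.73. The 7 fibroblast and mesenchyme markers summed to 122, 107, 145 and 169 CPM, and Prrx1 was at or under 3 reads in every library. Most of each sum was Vim, with 111, 91.4, 128.5 and 152 CPM. The rest moved in different directions: Twist1 had 1.51 CPM at day 0 and 6.71 in Nons, Thy1 3.76 and 6.29, and Pdgfrb 4.73 and 1.68. The 4 cartilage markers summed to between 9.07 and 11.5 CPM in the 4 libraries, but they moved in different directions. Matn1 had 7.96 CPM at day 0 and 0.874 in Nons, while Acan had 3.23 and 6.08 CPM and Comp 0.269 and 1.86 CPM. Sox9 had 0 reads at day 0 and at most 0.411 CPM at day 6. Of the 2 blood markers found, Ptprc had 0 reads in all 4 libraries. Hba-a1 had 0 reads at day 0 and 36, 11 and 16 reads with Nons, Smarca4.4 and Smarca4.6, in that order. The part of these cell types in the collagen levels was not tested.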

How the data were processed

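RNA-seq was analysed for 4 libraries. Per the study's methods, paired-end reads were trimmed with trim_galore, aligned with HISAT2 (tophat is also named) to mm10 masked at FVB and CAST variants, and counted over exons in SeqMonk. The strand setting is not given in the sources used here. The deposited values are log2 CPM per gene, with both alleles combined.

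Back-transformed values were even steps, so that whole reads and library totals were recovered. Between 99.94% and 99.98% of nonzero values lay within 0.05 of a whole read, with a count of 0 entered as 0.9 of a read. Totals were 18599402 to 47143739 reads.

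Differences are between deposited log2 CPM values. Genes averaging log2 CPM of at least 0 were kept (13264). Calls are differences of at least 2-fold, or 1.5-fold for hairpins. With 1 library per group there is no test. Intervals are exact (Clopper-Pearson, 95%) and cover counting error only. Levels between genes were compared per kilobase of GENCODE M21 exon. The deposited coordinates are mm10.

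Named are collagen genes with at least 10 CPM in a library or kept and 1.5-fold different with a hairpin. Of the lists, Serpinh1, P4ha1, P4hb, Plod2, Lox and Sparc and the extremes in each comparison are named. Other collagen genes were added for description after their values were seen. The members, classes and lists were chosen with earlier results of these data known. Of the 46 symbols for modifying genes and partners, 45 were found (Mia3 was not), 6 of them under older symbols. Scripts were tested on simulated reads. Alternatives were other filters, log2(CPM + 1) and centring on the median of all genes. Software was Python 3.11.15 with pandas 2.3.3, matplotlib 3.10.9, scipy 1.17.1 and numpy 2.4.6.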

Additional observations from a re-analysis of the deposited data

How the results depend on the processing

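No paired analysis was possible because every group is a lone library, so none could be left out. The count of collagen genes at least 2-fold different was 15 between Nons and day 0, 0 (Smarca4.4) and 1 (Smarca4.6). With no filter on low values it was 32, 7 and 11, of 43 genes, many with few or no reads. With the stricter filter (an average log2 CPM no lower than 3, 8 genes) it was 4 between Nons and day 0. At 1.5-fold, the counts of 2 (Smarca4.4) and 5 (Smarca4.6) became 14 and 17 with no filter and 1 and 1 with the stricter filter, and with log2(CPM + 1) the count for Smarca4.6 was 2, 0 higher and 2 lower in place of 3 and 2. For the modifying list, 21 genes between Nons and day 0 became 13 with the stricter filter. Its 1 gene with each hairpin became 6 and 5 with no filter, 0 and 0 with the stricter filter, 2 and 2 with centring, and 2 and 2 with the filter on the 2 libraries compared, and in Smarca4.4 0 with log2(CPM + 1). For the degrading and receptor list, 9, 3 and 3 genes became 15, 6 and 5 with no filter. The stricter filter left 1 gene with Smarca4.4 and 0 genes with Smarca4.6, and log2(CPM + 1) left 1 for Smarca4.6. The alternatives that changed the filter tested more or fewer genes; for the rest the cause was not tested. The collagen median for Smarca4.6 was -0.13 with the stricter filter, against 0.13. The type IV medians were 0.07 (Smarca4.4) and 0.22 (Smarca4.6) with no filter, against 0.53 and 0.29. Of the 15 differences of named collagen genes past the threshold, 3 fell under it with log2(CPM + 1) and 1 with centring. Neither alternative could have reversed the direction of these differences, so direction was not checked by them.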

Other observations

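These values were chosen after they were seen. Among the basement membrane partners of type IV collagen, Nid1, Nid2 and Hspg2 did not share its order across the libraries, whereas the laminin chain gene Lama1 did. Lamb1, another laminin chain gene, did not, with 32.4 CPM at day 0, 171 with Nons, 164.5 with Smarca4.4 and 153 with Smarca4.6. The nidogen genes Nid1 and Nid2, whose products link laminin to the type IV network, were lower in both hairpin libraries than in Nons, whereas Col4a1 and Col4a2 were higher. Nid1 had 247 CPM at day 0, 31.1 with Nons, 24.5 with Smarca4.4 and 21.9 with Smarca4.6. Nid2 had 658, 274, 184 and 214.5 CPM in the same order. Hspg2, which encodes perlecan, had 265 CPM at day 0 and 525, 444 and 382 CPM at day 6, in the order of Col18a1. With the hairpins, Nid1, Nid2 and Hspg2 differed from Nons by between -0.24 and -0.58 on the log2 scale.

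The collagen receptor genes Ddr1 and Ddr2 went in opposite directions over time. Ddr1 had 10.7 CPM at day 0 and 193 in Nons, while Ddr2, which was below the filter, had 17.5 and 0.328 CPM. With the hairpins Ddr1 had 214 and 232.5 CPM, and Ddr2 0.424 and 0.247 CPM.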
